A study of Mus musculus with 6 samples.

Results

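The MS4A genes encode small proteins that pass through the cell membrane several times and associate with immune receptors at the surface of leukocytes. The best known are MS4A1, which is the B cell antigen CD20, and MS4A2, the β chain of the high-affinity IgE receptor, while several others belong mainly to monocytes and macrophages. Mice have expanded the family into a single cluster of neighboring genes, and some of the encoded proteins also serve as odorant receptors in a class of olfactory neurons. The genes described here are 8 of the 46603 genes in the count table, taken from a list of symbols: Ms4a4a, Ms4a4b, Ms4a4c, Ms4a6b, Ms4a6c, Ms4a6d, Ms4a7 and Ms4a8a. All 8 passed the filter on low counts, as did 15440 genes overall.

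The samples were CD11B+ cells, pulled with magnetic beads from perfused and digested kidneys of 10- to 12-week-old males, killed on day 3 of IRI-AKI that was induced by a 28-minute clamp of the renal pedicles on each side. The PTEC DN RAR group (PEPCK CRE+; Rosa26-LSL-RARaT403X, n = 3 mice) expressed a dominant negative retinoic acid receptor in PTECs, the proximal tubule cells, where PEPCK drives Cre. The control group (PEPCK CRE–; Rosa26-LSL-RARaT403X, n = 3 mice) carried the silent allele without Cre and had the same surgery. PEPCK-Cre came from a mixed 129svJ; C57BL/6 background and the DN RAR allele from C57BL/6. The question was whether blocking RAR signaling in tubule cells alters the transcripts of kidney monocytes and macrophages after injury. Each mouse gave 1 library of polyA RNA with 29318041 to 46517005 counted reads.

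Several features of the whole libraries bear on any single gene. Rara, the gene for RARα, had 45.45, 35.33 and 45.11 CPM (counts scaled to library size with TMM factors) in controls and, in PTEC DN RAR mice, 30.75, 31.53 and 37.55, a change that did not pass the test (log2 fold change -0.33, edgeR adjusted p = 0.0628), and the table has no line for the transgene. Itgam, which encodes CD11B itself, was lower in PTEC DN RAR mice (1897.0 ± 139.5 against 1216.5 ± 207.1 CPM, mean ± SD, n = 3 each, edgeR adjusted p = 0.00818). Mitochondrial transcripts took 5.035% to 8.768% of reads in controls and, in PTEC DN RAR mice, 10.38% to 12.08%. Transcripts of nonleukocytes were also higher there, with 10 of 10 proximal tubule, 6 of 6 thick ascending limb and 8 of 8 endothelial markers past the test, where 23.6% of all genes were higher. The thick ascending limb markers summed to 1176.6 to 1575.7 CPM in controls and 4473.3 to 8526.4 CPM in PTEC DN RAR mice, and the proximal tubule markers to 471.2 to 657.6 and 1720.4 to 2705.6 CPM. The part of these differences in the results below was not tested. In a bulk sample, fewer cells of a type and less RNA per cell cannot be told apart.

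The members form families within the family. Over their aligned coding sequences, Ms4a4b and Ms4a4c were 91.7% identical, Ms4a6b and Ms4a6c 85.4%, Ms4a6b and Ms4a6d 81.2%, and Ms4a6c and Ms4a6d 79%. Ms4a4a stood farther off, at 67.1% identity to Ms4a4b and 68.3% to Ms4a4c. Ms4a7 and Ms4a8a were no more than 66.9% identical to any other member.

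The close pairs also share the sequence just upstream of their RefSeq starts. These windows are shown because the pairs are the nearest relatives among the members. Whether shared upstream sequence bears on their levels was not tested. RefSeq (GRCm38.p6) windows were found for 7 of the 8 members, 8 windows in all, and Ms4a6d had none. The windows below run 5′ to 3′ up to the base before the RefSeq start on the plus strand of chromosome 19. Capitals mark runs of at least 12 bases that both genes of a pair hold. By the GENCODE M21 coordinates used further below, Ms4a4c and Ms4a6b start earlier, at 11404770 and 11516512. By that annotation their windows lie inside the genes.
Ms4a6c (chr19:11469118-11469367, plus strand): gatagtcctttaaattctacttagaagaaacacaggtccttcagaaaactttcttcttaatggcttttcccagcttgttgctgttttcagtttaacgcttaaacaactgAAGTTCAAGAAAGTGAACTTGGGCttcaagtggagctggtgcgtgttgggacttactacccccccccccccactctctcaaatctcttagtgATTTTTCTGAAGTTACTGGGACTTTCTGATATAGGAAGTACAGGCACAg
Ms4a6b (chr19:11518309-11518558, plus strand): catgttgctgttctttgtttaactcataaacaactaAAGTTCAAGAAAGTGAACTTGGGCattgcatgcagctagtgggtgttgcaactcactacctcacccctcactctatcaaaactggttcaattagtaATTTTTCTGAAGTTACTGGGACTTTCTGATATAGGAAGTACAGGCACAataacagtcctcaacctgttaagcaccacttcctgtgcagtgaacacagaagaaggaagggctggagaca
Ms4a4c (chr19:11407411-11407660, plus strand): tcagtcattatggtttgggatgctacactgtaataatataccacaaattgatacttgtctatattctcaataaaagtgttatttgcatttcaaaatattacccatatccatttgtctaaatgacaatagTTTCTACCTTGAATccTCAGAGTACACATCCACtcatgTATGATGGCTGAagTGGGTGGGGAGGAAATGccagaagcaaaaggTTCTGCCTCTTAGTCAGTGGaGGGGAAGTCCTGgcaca
Ms4a4b (chr19:11443308-11443557, plus strand): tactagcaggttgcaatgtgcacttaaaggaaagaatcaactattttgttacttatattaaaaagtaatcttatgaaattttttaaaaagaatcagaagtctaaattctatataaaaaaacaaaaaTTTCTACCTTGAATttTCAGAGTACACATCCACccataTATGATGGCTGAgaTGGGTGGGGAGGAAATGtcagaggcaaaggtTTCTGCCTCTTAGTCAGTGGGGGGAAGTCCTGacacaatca
In the Ms4a6c and Ms4a6b windows 72 bases of each lay in such shared runs, the longest being 48 bases. In the Ms4a4c and Ms4a4b windows 92 bases did, with a longest run of 20 bases. Between members of different pairs no run was longer than 9 bases.

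Common binding-site forms were searched on both strands of the member windows. The short interferon-response form GAAANNGAA, in 7.13% of RefSeq windows of the same length, was found in 4 of the 8 member windows. These were both Ms4a7 windows and those of Ms4a6c and Ms4a6b. In Ms4a6c and Ms4a6b the match lay in a run that both genes share. Whether it bears on their levels was not tested. The AP-1 form TGANTCA, in 6.75% of the 32851 RefSeq windows of the same length, was found in Ms4a8a and in the second Ms4a7 window. No member window held the interferon-stimulated response element (2.98% of all windows), the GAS element TTCNNNGAA (7.02%), the PU.1 form GAGGAAGT (2.44%), the C/EBP form TTGCNNCAA (1.74%) or the DR5 retinoic acid response element (0.00913%).

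All but 1 of the 8 MS4A members were lower in CD11B+ cells of PTEC DN RAR mice. Of the 8 members, edgeR called 7 lower and 0 higher, and Ms4a7 was not called (unadjusted p = 0.651). Over 15 alternatives, 7 members were lower under 6, DESeq2 and limma-voom among them, and 6 under the other 9, where Ms4a4b was lost, and 0 were higher under any. Across all genes tested, 17.1% were called lower and 23.6% higher (40.6% in either direction), and the median log2 fold change was 0.035 against -0.98 for the members. With scaling on pan-leukocyte reference genes, 728 genes were lower and 4909 higher, the median of all genes moved to 0.247, and 6 members remained lower. The same 7 members had no overlap between genotypes, as had 24.2% of all genes in this direction and 29.2% in the other. Reads of the members summed to 2278.6 to 2792.3 CPM in controls and 1412.7 to 1524.5 CPM in PTEC DN RAR mice, from 59126 to 108997 reads per library.

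**Figure D1:**
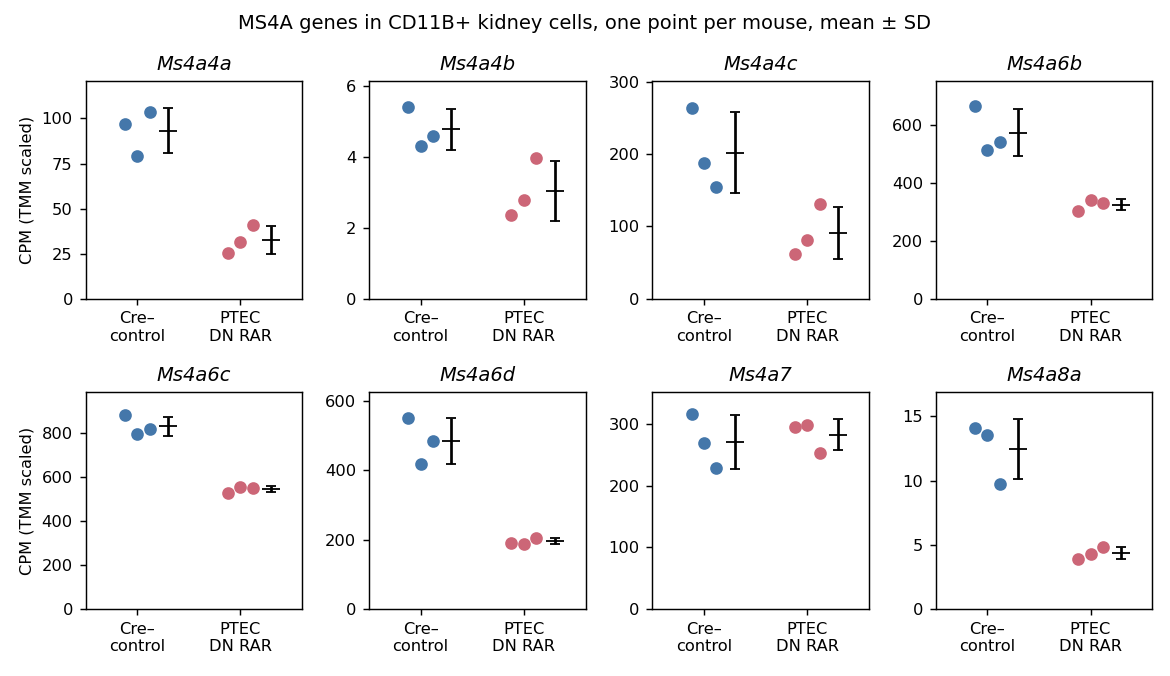
Each panel gives 1 MS4A gene, with CPM (TMM scaled, axis from 0) on the y axis, 1 point per mouse, and the mean ± SD beside each group of 3 mice. The points of the genotypes are apart in all panels but that of Ms4a7.

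Ms4a4a encodes a surface protein of alternatively activated macrophages that associates with Dectin-1. Its level was 97.12, 79.17 and 103.3 CPM in the control libraries and 25.49, 31.39 and 41.05 CPM in PTEC DN RAR mice. Every control lay well above every PTEC DN RAR mouse, and the fall was 2.85-fold (log2 fold change -1.51, standard error 0.17, edgeR adjusted p = 0.000529). Ms4a8a, another transcript described in alternatively activated macrophages, lies on the far side of the cluster and showed a fall of the same size (2.85-fold, log2 fold change -1.51, standard error 0.18, edgeR adjusted p = 0.000559). It was far scarcer, with 14.12, 13.55 and 9.788 CPM in controls and 3.942, 4.313 and 4.874 CPM in PTEC DN RAR mice. The groups were again separate.

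Ms4a6d, whose protein has been tied to inflammasome restraint and MHC class II signaling in macrophages, gave the smallest adjusted p of the members. Its 3 PTEC DN RAR values were nearly equal, at 191.4, 189.4 and 205.6 CPM, against 550.2, 416.7 and 485.1 CPM in controls. This was a 2.48-fold fall (log2 fold change -1.31, standard error 0.11, edgeR adjusted p = 0.000211). Its relatives Ms4a6b and Ms4a6c fell by less. Ms4a6b had 665.1, 512.4 and 542.6 CPM in controls and 303.2, 339.7 and 331.4 CPM in PTEC DN RAR mice (1.77-fold lower, log2 fold change -0.82, standard error 0.12, edgeR adjusted p = 0.00123). Ms4a6c had 881.7, 796.8 and 819 CPM in controls and 529.7, 556.2 and 553.5 CPM in PTEC DN RAR mice (1.52-fold lower, log2 fold change -0.61, standard error 0.09, edgeR adjusted p = 0.0014). In both genes the lowest control stood clear of the highest PTEC DN RAR mouse.

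Ms4a4c belongs to the genes that the study's reference lists place among those raised in M1, or proinflammatory, macrophages. It was the most variable of the abundant members, at 263.5, 187.8 and 154 CPM in controls and 61.48, 81.4 and 131.2 CPM in PTEC DN RAR mice. The lowest control and the highest PTEC DN RAR mouse came close without overlap, and the difference passed the test (2.21-fold lower, log2 fold change -1.14, standard error 0.28, edgeR adjusted p = 0.0124). It remained past the threshold when any mouse was left out, with log2 fold changes from -1.54 to -0.91.

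Ms4a4b, best known as a T cell protein that modulates activation, was near the lower end of the measured range. It had 5.431, 4.328 and 4.593 CPM in controls and 2.365, 2.781 and 3.984 CPM in PTEC DN RAR mice, from 99 to 212 reads. The difference passed the threshold narrowly (1.57-fold lower, log2 fold change -0.65, standard error 0.23, edgeR adjusted p = 0.049). The edgeR adjusted p rose to 0.1197, 0.05892 and 0.08588 without control 1, 2 and 3, and to 0.1432 and 0.1211 without PTEC DN RAR mouse 1 and 2, so the call depended on each of these libraries. The log2 fold change was then -0.55, -0.76 and -0.73, and -0.50 and -0.59, so it was larger, not smaller, without control 2 or 3, and fewer samples entered each fit. It was also lost with library size scaling (adjusted p = 0.05175), with pan-leukocyte scaling (log2 fold change -0.42, adjusted p = 0.255), with at least 10 counts in every library (adjusted p = 0.05603) and with the replicate block (adjusted p = 0.06522). Its own reads amounted to 2.061%, 2.304% and 2.982% of those of its near-copy Ms4a4c in controls and, in PTEC DN RAR mice, 3.848%, 3.416% and 3.037%, so the ratio was not constant. Reads that cannot be placed between the pair are left out of counts of this kind, which makes both levels uncertain. Of 50-base windows along the coding transcript, 4.19% of those of Ms4a4b and 8.48% of those of Ms4a4c recur in another gene.

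Ms4a7, a marker of tissue-resident macrophages at several body sites, did not follow the others. Its CPM was 315.1, 267.9 and 228.7 in controls and, in PTEC DN RAR mice, 295, 298.5 and 252.9, and the groups overlapped. The log2 fold change was 0.06 (standard error 0.13, edgeR adjusted p = 0.734), with a 95% interval from -0.23 to 0.35 that lies above the estimate for each of the other 7 members. A small change in either direction could not be told at this depth of replication. Its direction turned to -0.12 when libraries were scaled on resident macrophage markers and to -0.09 without control 3, and it did not pass the test there either.

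**Figure D2:**
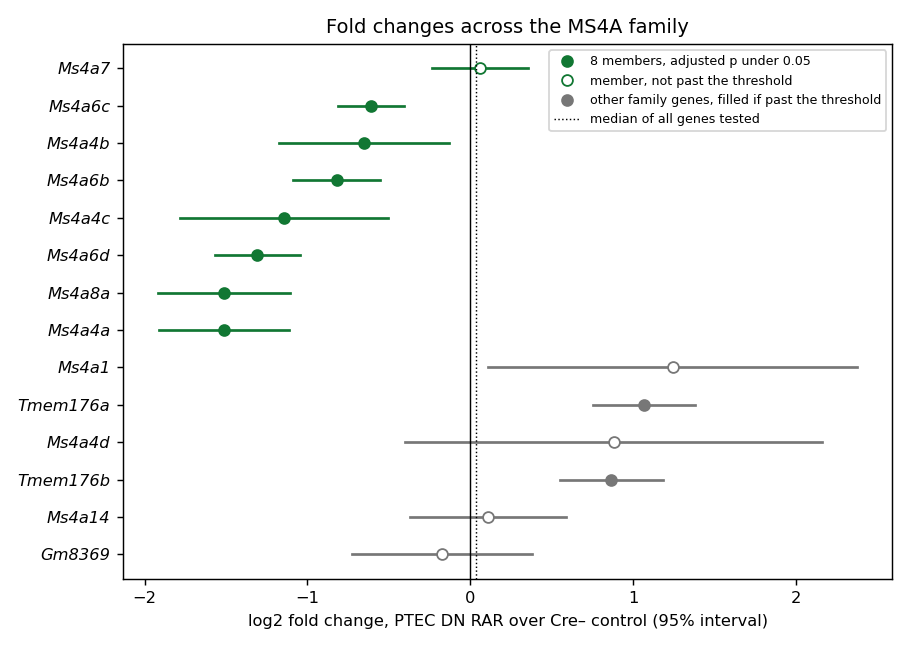
Log2 fold changes, PTEC DN RAR over Cre– control, are on the x axis with 95% intervals from edgeR, with the 8 members above and other family genes below. Filled points passed the adjusted p threshold of 0.05, and the interval of Ms4a7 spans 0 while those of the other 7 members lie below it.

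Ratios between members do not depend on how libraries are scaled, and they separated the genotypes as well. Ms4a6d reads were 1.746, 1.555 and 2.121 times those of Ms4a7 in controls and 0.6487, 0.6345 and 0.8127 times in PTEC DN RAR mice. Thus the more counted gene of the pair was Ms4a6d in each control and Ms4a7 in each PTEC DN RAR mouse. The ratio of Ms4a4a to Ms4a7 was 0.3082, 0.2955 and 0.4519 in controls and, in PTEC DN RAR mice, 0.08641, 0.1052 and 0.1623. Within the MS4A6 subgroup, the ratio of Ms4a6d to Ms4a6c was 0.624, 0.5229 and 0.5924 in controls and, in PTEC DN RAR mice, 0.3613, 0.3405 and 0.3714. The groups did not overlap in any of these ratios, Ms4a6d being lower relative to Ms4a6c in each PTEC DN RAR mouse than in any control. By a two-sided exact permutation test, p was 0.1 for each, which is the lowest possible value with 3 mice in each genotype, and 0.117 after adjustment over the 7 ratios computed.

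Levels of different genes can be compared only per length. Per kb of annotated exon, controls had 406.1 ± 21.5 CPM per kb of Ms4a6c (SD, n = 3), 279.0 ± 38.5 of Ms4a6d, 127.8 ± 18.0 of Ms4a6b, 115.2 ± 32.0 of Ms4a4c, 111.5 ± 15.0 of Ms4a4a, 60.8 ± 9.72 of Ms4a7, 6.96 ± 1.31 of Ms4a8a and 0.545 ± 0.0656 of Ms4a4b. Ms4a6c and Ms4a6d thus ranked 86 and 126 among 15393 genes with a length, while Ms4a8a ranked 5266 and Ms4a4b 11974. The neighbors Ms4a6b, Ms4a4c and Ms4a4a in this order differed by less than the spread between mice. The order depends on the length taken. Per kb of 1 coding transcript, Ms4a7 rose to 171.7 ± 27.5 CPM per kb, above Ms4a4c (117.1 ± 32.6) and Ms4a4a (111.5 ± 15.0), and Ms4a6b to 214.0 ± 30.2, since the union of their annotated exons is much longer than that transcript.

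The make-up of the family shifted. Ms4a6c went from 36.8% ± 1.92 of the members' summed CPM per kb in controls to 43.8% ± 1.84 (SD, n = 3 each) under DN RAR, and Ms4a7 from 5.48% ± 0.598 to 10.5% ± 1.48. Ms4a6d went the other way, from 25.1% ± 1.28 to 18.5% ± 0.735, as did Ms4a4a, from 10.1% ± 1.28 to 6.37% ± 1.14, and Ms4a8a, from 0.630% ± 0.118 to 0.400% ± 0.0183. None of these 5 shares overlapped between genotypes. Those of Ms4a4b, Ms4a4c and Ms4a6b did, Ms4a6b holding 11.5% ± 0.376 and 11.9% ± 0.495. In read counts without regard to length, the Ms4a7 share differed more (10.9% ± 1.05 in controls and 19.1% ± 2.24 in PTEC DN RAR mice), those of Ms4a6c (33.8% ± 1.94 and 36.9% ± 0.598) and Ms4a4a (3.79% ± 0.535 and 2.195% ± 0.454) differed less, and that of Ms4a6b turned its direction (23.1% ± 0.666 and 21.9% ± 0.588, with overlap).

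**Figure D3:**
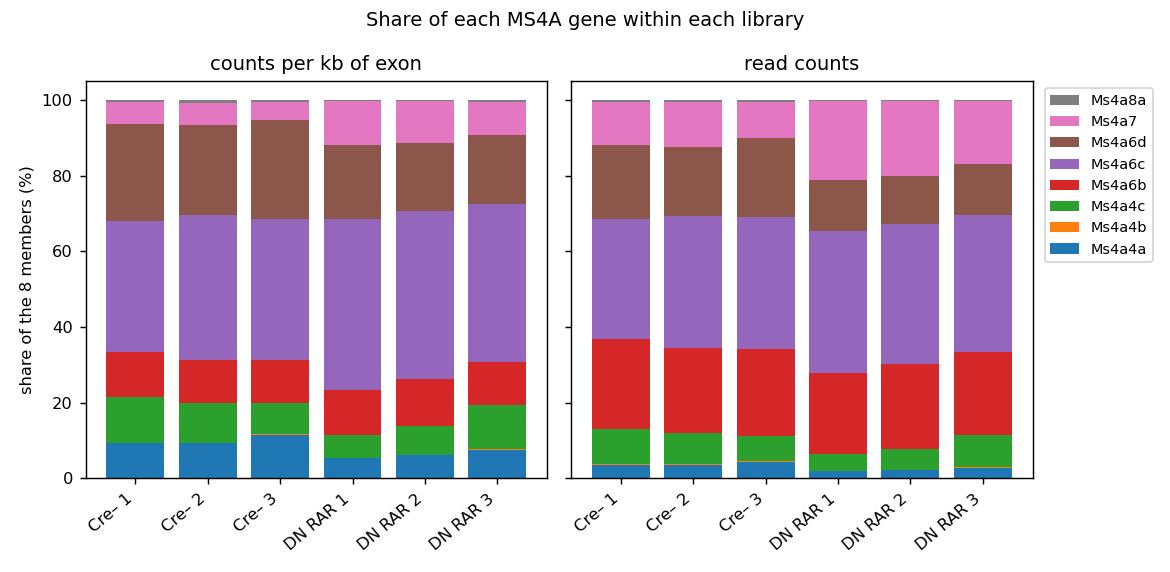
Stacked bars give the share of each MS4A gene (%, y axis) in the sum of the 8 members for each of the 6 libraries, per kb of exon at left and in read counts at right. In either unit the Ms4a7 share is higher and the Ms4a6d share lower in all 3 PTEC DN RAR libraries than in any control.

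All 8 members lie in 1 cluster of 22 protein-coding MS4A genes on chromosome 19 of GRCm38, between 10962293 and 11640851, a span of 678.6 kb. Of these, 12 passed the filter. Ms4a7 (ENSMUSG00000024672, chr19:11321039-11336146, minus strand) and the adjacent Ms4a14 (chr19:11301249-11314454, minus strand) sit in the middle. To their left, Ms4a8a (ENSMUSG00000024730, chr19:11067471-11081102, minus strand) starts at -255.0 kb from the start of Ms4a7. To their right, Ms4a4a (ENSMUSG00000101389, chr19:11375523-11392790) starts 39.4 kb from the start of Ms4a7, followed by Ms4a4c (ENSMUSG00000024675, chr19:11404770-11427246), Ms4a4b (ENSMUSG00000056290, chr19:11443553-11467055), Ms4a6c (ENSMUSG00000079419, chr19:11469366-11482192) and Ms4a6b (ENSMUSG00000024677, chr19:11516512-11531256), all on the plus strand. Ms4a6d (ENSMUSG00000024679, chr19:11586604-11604849) is on the minus strand at 268.7 kb. Lower members therefore lay on both sides of the pair that was not called.

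Ms4a14 showed no call beside Ms4a7, at 20.44, 24.89 and 16.06 CPM in controls and 17.23, 28.44 and 20.68 CPM in PTEC DN RAR mice (log2 fold change 0.11, 95% interval -0.37 to 0.59, edgeR adjusted p = 0.697). That value turned to -0.07 with scaling on resident macrophage markers, -0.08 without control 3 and -0.11 without PTEC DN RAR mouse 2, in each case short of the threshold. The ratio of Ms4a7 to Ms4a14 reads was 15.41, 10.76 and 14.24 in controls and, in PTEC DN RAR mice, 17.13, 10.49 and 12.23, with overlap (exact permutation p = 0.9). Gm8369, between Ms4a6c and Ms4a6b, was at 1.895 ± 0.113 and 1.684 ± 0.389 CPM (SD, n = 3 each) and was not called (edgeR adjusted p = 0.6).

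**Figure D4:**
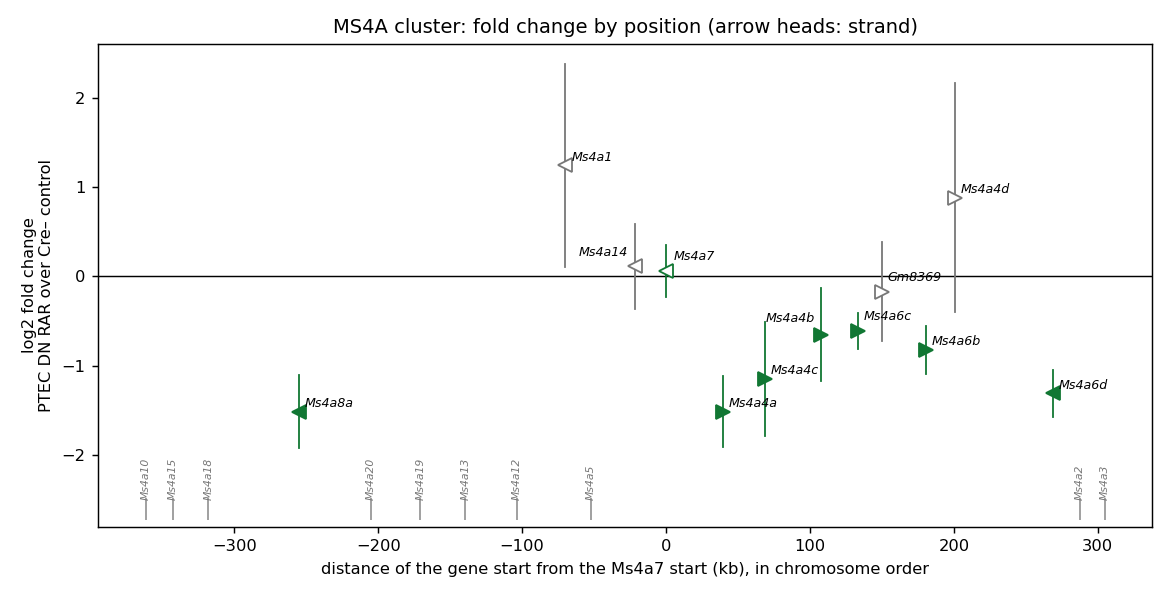
The x axis gives the distance of each gene's start from that of Ms4a7 (kb), the y axis the log2 fold change with its 95% interval, arrowheads the strand, and gray ticks at the bottom the genes under the filter. Filled symbols passed the test, and the members on either side of Ms4a7 and Ms4a14 are filled and below 0.

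Other family genes were mostly scarce. Besides the 8 members, 16 family genes were matched in the table, of which 5 had 0 reads in all libraries (Ms4a5, Ms4a10, Ms4a13, Ms4a18 and Ms4a19, each with a limit of 3 reads, at most 0.102 CPM in the shallowest library, for counting error only). Another 5 had from 1 to 8 reads over the 6 libraries, among them Ms4a2 with 8 reads and Ms4a3 with 1 read, genes of mast cells, basophils and myeloid precursors. Ms4a1, the CD20 gene of B cells, had 19, 28 and 8 reads in controls and, in PTEC DN RAR mice, 67, 70 and 34. The log2 fold change of 1.24 (standard error 0.50) did not pass the test (edgeR adjusted p = 0.0757), though it did without control 2 (adjusted p = 0.03489), without PTEC DN RAR mouse 3 (adjusted p = 0.04043), with pan-leukocyte scaling (log2 fold change 1.44, adjusted p = 0.03599) and with the replicate block (log2 fold change 1.31, adjusted p = 0.0245). Ms4a4d, with 2 to 22 reads per library, was not called (log2 fold change 0.88, edgeR adjusted p = 0.24).

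Tmem176a and Tmem176b, related membrane proteins encoded on chromosome 6 and found in dendritic cells and macrophages, went the opposite way from the members. Tmem176a had 321.6, 304.8 and 271.1 CPM in controls and 667.9, 708.2 and 506.1 CPM in PTEC DN RAR mice (2.1-fold higher, log2 fold change 1.07, standard error 0.14, edgeR adjusted p = 0.000805). Tmem176b had 568.6, 510.8 and 463.4 CPM in controls and 1009.3, 1037.7 and 767.5 CPM in PTEC DN RAR mice (1.82-fold higher, log2 fold change 0.87, standard error 0.14, edgeR adjusted p = 0.00202). All PTEC DN RAR libraries stood above all controls for both genes.

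Genes for proteins that work with MS4A proteins were counted beside the family. Of 11 such genes 10 were tested, and 3 of them were lower and 2 higher, around a median of -0.18 on the log2 scale, where 17.1% of all genes were lower and 23.6% higher. Among receptors, Trem2, a lipid receptor whose soluble form varies with human MS4A variants, was lower at 336.2, 177.1 and 252.1 CPM in controls and 152.2, 116.6 and 149.7 CPM in PTEC DN RAR mice (log2 fold change -0.87, standard error 0.21, edgeR adjusted p = 0.0122). Clec7a, which encodes Dectin-1, the partner of Ms4a4a, was at 569.7 ± 4.5 and 532.9 ± 30.2 CPM in controls and PTEC DN RAR mice (SD, n = 3 each), and its log2 fold change of -0.10 had a 95% interval from -0.29 to 0.10 (edgeR adjusted p = 0.402). Ms4a4a therefore fell while its receptor partner differed by less than the test could separate. Vsig4, the partner of Ms4a6d, was sparse and uneven, at 2.664, 7.951 and 1.14 CPM in controls and 1.29, 1.155 and 0 CPM in PTEC DN RAR mice, and it did not pass the test (log2 fold change -2.27, 95% interval -4.49 to -0.05, edgeR adjusted p = 0.0933).

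Downstream of these receptors, Nlrp3, the inflammasome sensor, was lower at 163.4, 161.6 and 180.5 CPM in controls and 94.78, 84.88 and 90.4 CPM in PTEC DN RAR mice (log2 fold change -0.90, standard error 0.09, edgeR adjusted p = 0.000284). Syk, the kinase that Dectin-1 engages, was lower by a small amount (406.6 ± 17.8 against 339.8 ± 20.03 CPM, log2 fold change -0.26, edgeR adjusted p = 0.0437). The adaptors Tyrobp and Fcer1g were not called (log2 fold changes -0.26 and -0.03, edgeR adjusted p = 0.184 and 0.854), nor was Tnfrsf18, which encodes the Ms4a4b partner GITR (log2 fold change -0.02, edgeR adjusted p = 0.959). H2-Ab1, an MHC class II chain, was higher (3299.0 ± 504.4 against 6517.6 ± 1371.7 CPM, log2 fold change 0.98, edgeR adjusted p = 0.00435), and so was Cd4, carried by helper T cells and some mononuclear phagocytes (55.2 ± 13.9 against 94.6 ± 12.4 CPM, log2 fold change 0.78, edgeR adjusted p = 0.00926). Fcer1a, the IgE-binding chain, had 1 read in 1 library and was not tested.

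Markers of the cells that could carry these transcripts moved unequally, and the counts called in each list stand against 17.1% of all genes lower and 23.6% higher. Of 8 markers of infiltrating monocytes 7 were lower, and their sum was 3812.3 to 4113.0 CPM in controls and 1611.1 to 1673.0 CPM in PTEC DN RAR mice. In list order, Ly6c2 was not called (49.1 ± 15.5 against 26.3 ± 14.1 CPM), whereas the chemokine receptor gene Ccr2 fell from 1291.4 ± 42.5 to 780.6 ± 14.3 CPM and Chil3 from 226.8 ± 20.5 to 108.3 ± 41.1 CPM (SD, n = 3 each). The summed resident macrophage markers overlapped, at 15775.4 to 20717.0 CPM in controls and 17949.6 to 22899.2 CPM in PTEC DN RAR mice. Neutrophil markers summed to 470.6 to 849.4 CPM and 298.8 to 425.9 CPM, with 5 of 10 lower. The summed MS4A members were lower without overlap, as were the monocyte and neutrophil lists, the mast cell and basophil list, the CD11B selection list (3225.8 to 3737.8 CPM in controls against 2300.0 to 2989.6 CPM) and the pan-leukocyte reference genes (16407.3 to 17212.2 against 13054.4 to 15173.8 CPM), while Ms4a7, like the resident macrophage list, overlapped. The part of these lists in the fall of the members was not tested.

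T cell markers summed to 7.045 to 8.49 CPM in controls and 5.213 to 8.84 CPM in PTEC DN RAR mice, with overlap. Cd28 made up most of the control sum, and without it the other 9 summed to 2.629 to 2.946 CPM in controls and 3.052 to 7.598 CPM in PTEC DN RAR mice, without overlap. Among the 10, Cd3d and Cd3e were under the filter, Cd3g was not called, 1 of the 7 tested (Cd28) was lower and 2 (Bcl11b and Cd5) were higher, shares near those of all genes. NK cell markers summed to 3.168 to 9.125 CPM and 2.545 to 6.929 CPM, and each of the 5 tested overlapped between genotypes. B cell markers summed to 39.47 to 48.8 CPM and 54.38 to 80.66 CPM, with 3 of 6 higher. Mast cell and basophil markers summed to 79.37 to 110 CPM and 65.49 to 77.36 CPM, mostly from Hdc, with 1 of 3 tested lower (Hdc) and 2 higher, while the defining genes Cpa3, Mcpt8 and Fcer1a were near 0. Dendritic cell markers overlapped (163.5 to 261.6 and 171.1 to 186.4 CPM), with 1 of 8 lower and 2 higher, again near the shares of all genes. Leukocyte reference genes common to all such cells had a median log2 fold change of -0.20, with 8 of 24 lower.

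**Figure D5:**
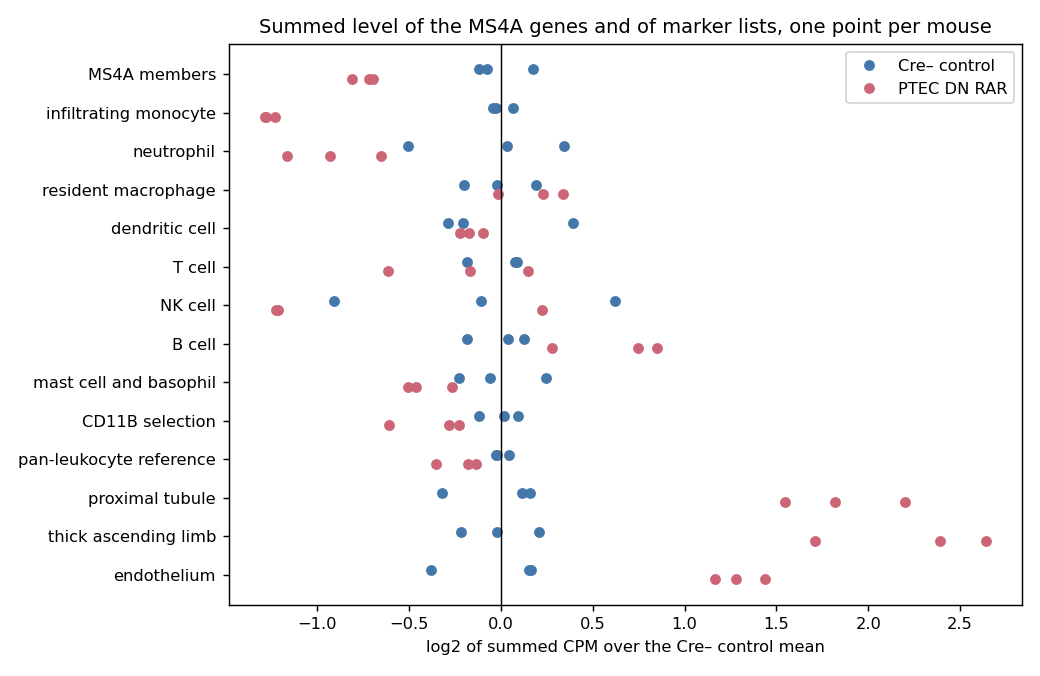
Each row is a gene list, and each point is 1 mouse's summed CPM as the log2 ratio to the Cre– control mean (x axis). PTEC DN RAR mice lie below the controls for the MS4A members and for the infiltrating monocyte, neutrophil, mast cell and basophil, CD11B selection and pan-leukocyte lists, above them for the B cell, tubule and endothelial lists, and overlap with them for the others.

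Among 8980 genes with a mean of at least 10 CPM, the profiles most like each member over the 6 libraries were picked by the root mean square difference of centered log2 CPM. Because both genotypes enter this measure, it largely finds genes with the same fold change. Ms4a4a was nearest to Treml2 (difference 0.103) and Mmp8 (0.148), which are expressed in neutrophils among other leukocytes, and Ms4a8a had no close neighbor, the nearest being Mlkl (0.194) and Gm5150 (0.211). Ms4a4c was nearest to Isg15, an interferon-stimulated gene (0.079), and Mnda, and Ms4a6b to Fcgr1, the high-affinity IgG receptor (0.064), and Arid5a. Ms4a6c was nearest to Entpd7 (0.019) and Nrros, Ms4a6d to Dusp5 (0.076) and Tnfsf14, Ms4a7 to Dguok (0.034) and Tagap, and Ms4a4b to Inf2 (0.084) and Nt5c3. Isg15 shared the wide spread of Ms4a4c among mice of a genotype, with means of 95.8 CPM in controls and 42.4 CPM in PTEC DN RAR mice.

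Genes flanking the cluster were called in both directions. Within 250 kb of the cluster on either side there were 20 protein-coding genes, of which 9 were tested, 2 were lower and 2 higher, against 17.1% and 23.6% of all genes. The nearest tested were Ccdc86 (log2 fold change -0.95, edgeR adjusted p = 0.00251) and Prpf19 (log2 fold change -0.18, edgeR adjusted p = 0.0874) on the Ms4a8a side, and Mrpl16 (log2 fold change -0.06, edgeR adjusted p = 0.695) and Stx3 (log2 fold change 0.11, edgeR adjusted p = 0.345) beyond Ms4a6d. None of these encodes an MS4A protein.

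No 50-base window of the coding transcripts of Ms4a4a, Ms4a7 or Ms4a8a recurs in another gene, while 2.92% of those of Ms4a6d, 5.89% of Ms4a6b and 11.9% of Ms4a6c do. A further 45% of Ms4a6c windows lie in exons of BE692007, a gene on the opposite strand that had 9 to 24 reads per library. Whether the counting used strand is not given in the sources used here, and without strand, reads from that stretch would be set aside for both genes, which would lower the counted level of Ms4a6c.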

How the data were processed

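The authors deposited raw read counts per Ensembl gene for 6 libraries, 1 per mouse. Per the labels' processing notes, STAR 2.5.0a, HTSeq 0.6.1, edgeR, limma and GRCm38 were used, and the annotation release is not given in the sources used here. Alignments to more than 1 place (42.93% to 47.75% per library) and reads over several genes are outside the gene counts, which lowers genes with near-identical copies. The 46612 gene lines held 9 repeated identifiers with equal counts, leaving 46603 genes, of which 46091 were found in GENCODE M21 for coordinates and lengths. Ms4a19 and Ms4a20 were matched through their older names.

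In R 4.3.3, edgeR 4.0.16 was used to filter the counts (filterByExpr), to scale libraries (TMM) and to test the genotypes by its quasi-likelihood functions glmQLFit and glmQLFTest. P values were adjusted by Benjamini-Hochberg over the 15440 genes left, and 0.05 was the threshold. A standard error is the log2 fold change divided by the square root of F. The test was first tried on simulated counts. Log2 CPM used a prior count of 2. A count of 3 reads, taken as the limit for 0, equals 0.0645 to 0.102 CPM, and covers counting error only. Libraries of a genotype differed by a chi-square per degree of freedom of at least 27.1, so each was counted once. Alternatives used library size, RLE, pan-leukocyte or resident macrophage scaling, other filters, limma 3.58.1 (voom), DESeq2 1.42.0, a replicate block, read counts for shares, and leaving out each mouse. Sequence comparisons used Biopython 1.88, tables pandas 2.3.3, and figures matplotlib 3.10.9, in Python 3.11.

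Named genes are the 8 members, other family genes, partner genes, up to 3 markers per list in list order, the nearest flanking genes, and the 2 nearest profiles per member among genes of at least 10 CPM. Cd28, Bcl11b, Cd5 and Hdc were named in addition after their values were seen. The members and lists were chosen with earlier results of these data known.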

Additional observations from a re-analysis of the deposited data

How the results depend on the processing

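Across 15 alternatives, 6 members (Ms4a4a, Ms4a4c, Ms4a6b, Ms4a6c, Ms4a6d and Ms4a8a) kept their call of lower in PTEC DN RAR mice, and the count of members lower was 7 under 6 of them and 6 under 9, in each case through the loss of Ms4a4b. Ms4a4b had log2 fold changes of -0.64 with library size, -0.42 with pan-leukocyte scaling (adjusted p = 0.255), -0.63 with at least 10 counts in every library and -0.68 with the replicate block (adjusted p = 0.0652), and from -0.94 to -0.50 when 1 mouse was left out. Its adjusted p ranged from 0.0134 to 0.255 over all alternatives. Pan-leukocyte scaling moved the median over all genes, on the log2 scale, from 0.035 to 0.247 and the count of genes lower to 728, with 4909 higher (12.9% of calls lower, against 42%), and brought Ms4a6c to -0.39 and Ms4a7 to 0.27. Scaling on resident macrophage markers, chosen after seeing the data, moved the median to -0.139, with 3191 genes lower and 2565 higher (55.4% of calls lower), Ms4a7 to -0.12 and Ms4a14 to -0.0686. Leaving out 1 mouse gave 1874 to 2824 genes lower and 2433 to 3699 higher, Ms4a7 from -0.0939 (without control 3) to 0.18 and Ms4a14 from -0.11 to 0.26. The cause of these turns was not tested. Ms4a1 passed the threshold with pan-leukocyte scaling (1.44), with the replicate block (1.31, adjusted p = 0.0245) and without control 2 (1.76) or PTEC DN RAR mouse 3 (1.502).

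Same-numbered mice of the 2 genotypes are different animals, and their deviations from the group means correlated at -0.015, 0.211 and 0.029, so the numbers were not taken to pair them. With the replicate block, 2606 genes were lower and 3612 higher, and of the members only the call of Ms4a4b changed. In read counts in place of counts per kb, the change in share was -1.59 percentage points for Ms4a4a, 3.12 for Ms4a6c and 8.18 for Ms4a7, and that of Ms4a6b turned from 0.386 to -1.21. Depth limits chiefly Ms4a4b, Gm8369, Ms4a4d and Ms4a1, with at most 212 reads in a library.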
